A study of Mus musculus with 6 samples.

Results

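The genes examined here encode the signal-transducing chains of the T-cell receptor (TCR) and the proteins that act directly beneath it. The list was drawn up by function and holds 9 genes: Cd3d, Cd3e, Cd3g and Cd247 for the receptor, the kinase genes Zap70 and Lck, the adaptor genes Lat and Lcp2, and the phosphatase gene Ptpn22. Each gene was read from the brightest probe set that the array annotation pairs with that symbol alone, which gave 8 of the 9 genes among 21789 such probe sets and 35556 in all. The annotation pairs no probe set with Lck, and Lck was not analysed here. Each of the other 8 genes had 1 probe set, and all 8 lay above the 83rd percentile of mean signal.

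RNA came from whole thymus of 10-day-old mice and was hybridised to Affymetrix mouse gene arrays. The RUNX2/MYC group (genotype CD2-Myc/CD2-Runx2, C57BL6/CBA background, 3 arrays) carried both transgenes under CD2 control elements, which act in the T lineage. The WT group (genotype C57/CBA, 3 arrays) carried neither, and no single-transgenic mice were measured, so the part of each transgene cannot be told apart. Both groups had the same age and tissue, and each array is labelled as a biological replicate of a mouse.

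The TCR binds peptide on MHC molecules but has no enzyme of its own, and the CD3 chains and the zeta chain carry its signal. When the receptor is engaged, the kinase LCK phosphorylates tyrosine motifs in these chains, ZAP-70 docks on them, and ZAP-70 then phosphorylates the adaptors LAT and SLP-76. In the thymus this pathway decides which immature T cells survive and mature.

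Log2 signals ran from 3.75 to 14.56 over the 6 arrays, with array medians of 7.31 to 7.44 in RUNX2/MYC and 7.41 to 7.49 in WT. The Runx2 probe set, known by its number in a supplementary table of the study, had a log2 signal of 11.73 to 11.96 on the RUNX2/MYC arrays and 7.93 to 7.94 on the WT arrays. The Myc probe set averaged 10.65 ± 0.20 in RUNX2/MYC and 11.13 ± 0.13 in WT (SD, n = 3 each), without overlap (log2 fold change -0.48, adjusted p = 0.119, limma). Whether this probe set detects transcripts of the MYC transgene was not tested, so its value does not measure the transgene. The groups overlapped along the leading principal component of all probe sets, where the RUNX2/MYC arrays lay at -6.79, 39.4 and 45.2 and the WT arrays at -45.95, -37.0 and 5.15. Among genes of other cell types, the summed linear signal of 11 thymic epithelial markers was 13423 to 15227 in RUNX2/MYC and 17988 to 19872 in WT. That of 10 dendritic cell and macrophage markers was 14122 to 15327 in RUNX2/MYC and 17306 to 18803 in WT. The brightest of these 10, which weigh most in the sum, were Cd74, H2-Aa and H2-Ab1. They, Itgax and Adgre1 were lower in RUNX2/MYC without overlap, whereas Csf1r, Lyz2, Mpeg1, C1qa and C1qb overlapped between the groups. The summed signal of 6 T-lineage markers such as Thy1 was 16026 to 18813 in RUNX2/MYC and 17447 to 17767 in WT. Signal of 6 measured adipocyte markers was high in RUNX2/MYC replicate 2 (4586, against 1426 and 1554 in the other RUNX2/MYC arrays and 1198 to 1482 in WT), and that of 3 erythroid markers in RUNX2/MYC replicate 1 (2529, against 1346 and 965 in the other RUNX2/MYC arrays and 678 to 916 in WT).

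As a group the TCR genes differed little between RUNX2/MYC and WT thymus. Log2 fold changes ran from -0.13 (Lcp2) to 0.32 (Cd3d), with a median of -0.023, beside -0.051 over all probe sets. None of the 8 passed an adjusted p under 0.05 in either direction (limma, Benjamini-Hochberg over all probe sets), where 1.8% of all probe sets did (1.68% higher, 0.127% lower), and none passed with the test and q values of the methods, which called 4.11% of all probe sets. At an unadjusted p under 0.05 there were 2 of 8 (25.0%), Cd3d and Zap70, beside 21.3% of all probe sets. The arrays of the groups did not overlap for Cd3d, Zap70 and Lcp2 (37.5% of the 8), beside 24.4% of all probe sets. Over 8 probe sets, both counts lay near what these background shares give. With the deposited values, the lowest 95% limit of the log2 fold change over the 8 genes was -0.38 (Cd247) and the highest 0.58 (Cd3d). These intervals hold for 1 gene at a time and 1 scaling, so they do not bound what was missed. Other scalings moved the estimates, that of Cd247 to -0.26 with cyclic loess and that of Cd3d to 0.41 with median centring. Because whole thymus was measured, fewer cells that express a gene and less RNA per cell cannot be told apart.

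**Figure D1:**
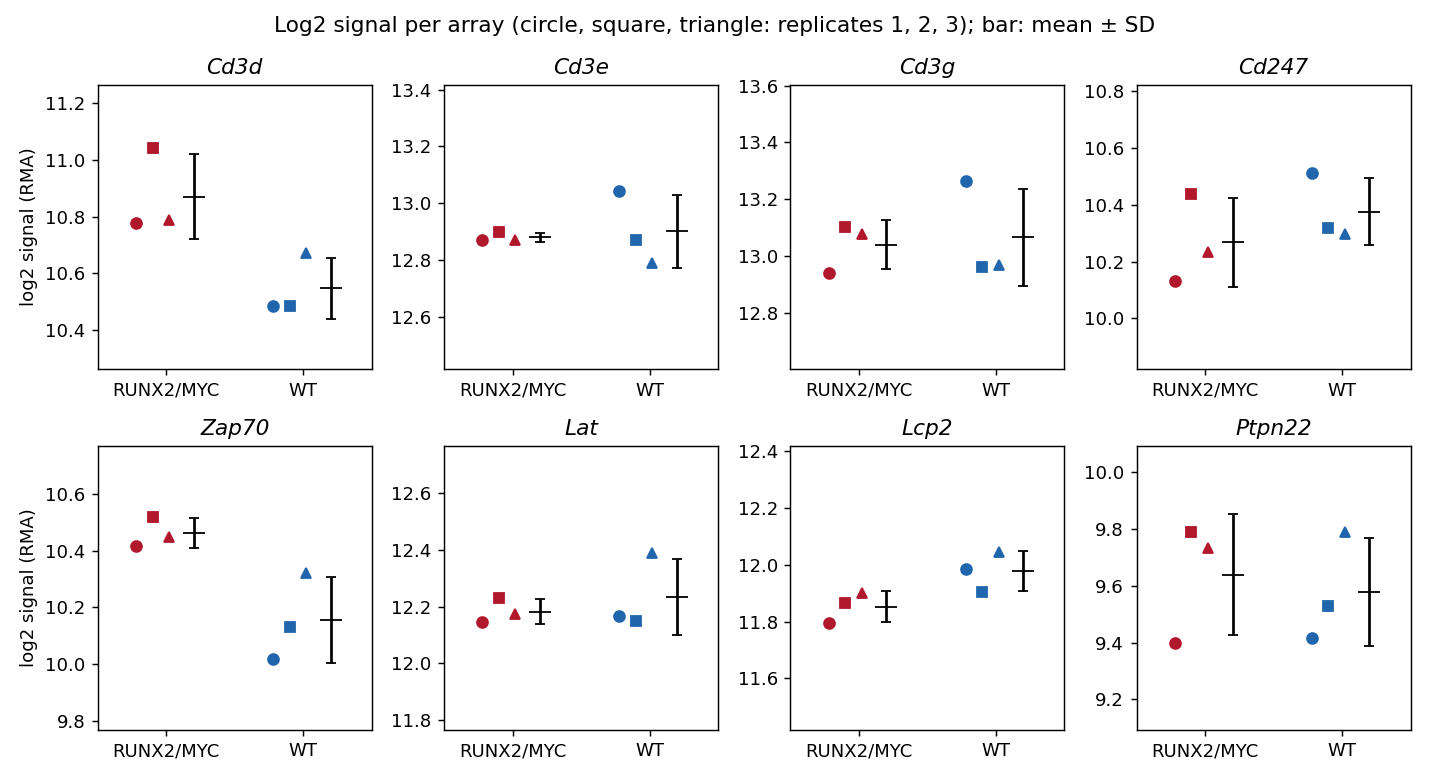
Log2 signal (RMA, vertical axes each spanning 1 log2 unit) of the 8 measured genes on each array, RUNX2/MYC in red and WT in blue, with symbols for replicates 1 to 3 and bars for mean ± SD. Cd3d and Zap70 lay higher on every RUNX2/MYC array than on any WT array, Lcp2 lay lower, and the other 5 genes overlapped.

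**Figure D2:**
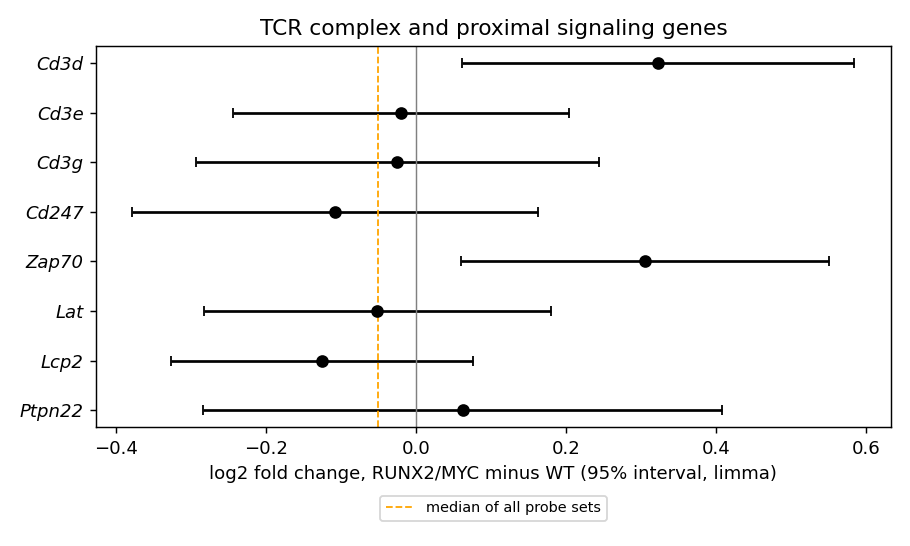
Log2 fold change, RUNX2/MYC minus WT, of the 8 measured genes (points) with 95% intervals from limma (bars); the dashed line is the median of all probe sets. The intervals of Cd3d and Zap70 lay above 0 before adjustment for multiple testing and the other 6 included 0.

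The CD3 chains pair with each other beside the TCR and are needed to bring it to the cell surface. Their genes lie together on chromosome 9: Cd3g (44969572 to 44980431, minus strand) and Cd3d (44981769 to 44987052, plus strand) are divergent neighbours 1337 bases apart, and Cd3e (44998735 to 45009663, minus strand) follows 11682 bases after Cd3d. The 250 bases before an annotated transcript start of each (RefSeq, GRCm38.p6), which for Cd3d and Cd3e reach into the gene bounds given here, are shown because these neighbours had unlike log2 fold changes. Capitals mark CAGGTG, which on the other strand reads CACCTG, a site type bound by E proteins; the windows were searched on both strands for this motif, for the RUNX motif, which reads TGTGGT or on the other strand ACCACA, and for the MYC E-box CACGTG, which do not overlap each other.
Cd3d, chr9:44981536-44981785, plus strand: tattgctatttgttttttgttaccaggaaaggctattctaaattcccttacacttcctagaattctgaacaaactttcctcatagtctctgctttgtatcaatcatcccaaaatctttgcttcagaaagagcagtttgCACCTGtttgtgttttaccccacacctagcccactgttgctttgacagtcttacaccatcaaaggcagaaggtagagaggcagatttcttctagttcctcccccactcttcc
Cd3g, chr9:44980432-44980681, minus strand: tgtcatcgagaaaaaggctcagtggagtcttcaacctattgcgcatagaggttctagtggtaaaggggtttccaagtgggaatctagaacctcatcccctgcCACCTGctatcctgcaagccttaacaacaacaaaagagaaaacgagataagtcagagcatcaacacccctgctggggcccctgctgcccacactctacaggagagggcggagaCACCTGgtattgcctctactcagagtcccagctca
Cd3e, chr9:45009612-45009861, minus strand: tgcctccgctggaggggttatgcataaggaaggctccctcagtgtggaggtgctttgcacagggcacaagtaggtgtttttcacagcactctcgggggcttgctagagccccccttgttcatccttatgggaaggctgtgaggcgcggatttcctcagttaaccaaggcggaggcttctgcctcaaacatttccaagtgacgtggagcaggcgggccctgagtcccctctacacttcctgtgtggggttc
Cd3d held 1 match, 112 bases before the start, and Cd3g held 2, at 148 and 35 bases before it. None of the 3 motifs was in the Cd3e window, and neither the RUNX motif nor the MYC E-box was in any of these 3 windows. Of all 32851 RefSeq windows of this length 17.2% held CAGGTG, 14.0% the RUNX motif and 6.02% the MYC E-box, so each match is a description only.

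Cd3d, the gene of the delta chain, had log2 signals of 10.78, 11.04 and 10.79 on RUNX2/MYC replicates 1 to 3 and of 10.48, 10.49 and 10.67 on WT replicates 1 to 3. Every RUNX2/MYC array was higher than every WT array, with RUNX2/MYC replicate 2 the highest and WT replicate 3 the nearest of its group. The means were 10.87 ± 0.15 in RUNX2/MYC and 10.55 ± 0.11 in WT (SD, n = 3 each), a log2 fold change of 0.32 (standard error 0.11, 95% interval 0.061 to 0.58) that did not pass the adjusted test (limma, adjusted p = 0.18). Cd3e, the epsilon chain gene, had log2 signals of 12.87, 12.90 and 12.87 in RUNX2/MYC and 13.04, 12.87 and 12.79 in WT. The RUNX2/MYC arrays lay inside the range of the WT arrays, and the log2 fold change was -0.021 (standard error 0.095, 95% interval -0.25 to 0.20, adjusted p = 0.901, limma). Cd3g, the gamma chain gene, had log2 signals of 12.94, 13.10 and 13.08 in RUNX2/MYC and 13.26, 12.96 and 12.97 in WT. WT replicate 1 was the highest array for both Cd3e and Cd3g. The log2 fold change of Cd3g was -0.025 (standard error 0.11, 95% interval -0.29 to 0.24, adjusted p = 0.899, limma).

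The difference between 2 genes on the same array is left as it is by centring the array, though not by quantile normalization or cyclic loess, and it was used to ask whether genes of the pathway differed between the groups by unlike amounts. Of 6 comparisons planned, the 2 with Lck were not run. The log2 signal of Cd3d minus that of Cd3e was -2.09, -1.86 and -2.08 in RUNX2/MYC and -2.56, -2.38 and -2.12 in WT. The groups did not overlap, although WT replicate 3 nearly met the lowest RUNX2/MYC array, and the mean difference was higher by 0.34 in RUNX2/MYC (exact permutation test, two-sided, p = 0.1, the smallest that 3 arrays against 3 allow; 0.2 after Benjamini-Hochberg adjustment over the 4 comparisons). Cd3d minus Cd3g also nearly met at WT replicate 3, at -2.16, -2.06 and -2.29 in RUNX2/MYC and -2.78, -2.48 and -2.30 in WT, a difference of 0.35 (exact permutation p = 0.1, adjusted p = 0.2), which was 0.22 without WT replicate 1. Cd3e minus Cd3g overlapped between the groups, with means of -0.16 ± 0.077 in RUNX2/MYC and -0.16 ± 0.065 in WT (SD, n = 3 each; exact permutation p = 1). Lat minus Lcp2 averaged 0.33 ± 0.050 in RUNX2/MYC and 0.26 ± 0.082 in WT (SD, n = 3 each; exact permutation p = 0.2, adjusted p = 0.267), and the groups overlapped; the difference of 0.074 was 0.036 without WT replicate 1 and 0.12 without WT replicate 3.

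**Figure D3:**
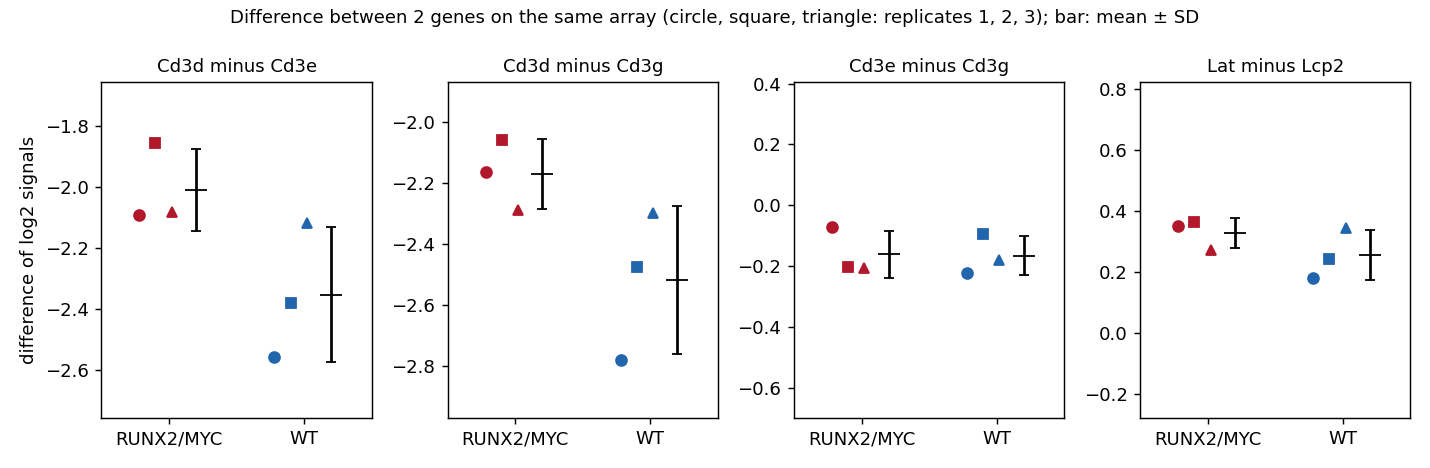
Difference of the log2 signals of 2 genes on the same array for the 4 pairs compared, RUNX2/MYC in red and WT in blue, with symbols for replicates 1 to 3 and bars for mean ± SD; the vertical axes span equal ranges. Cd3d relative to Cd3e and to Cd3g lay higher in RUNX2/MYC by 0.34 and 0.35, without overlap, while Cd3e relative to Cd3g did not differ beyond the spread.

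Cd247 encodes the zeta chain, which forms the longest cytoplasmic tails of the receptor (chromosome 1, 165779952 to 165871153). Its log2 signals were 10.13, 10.44 and 10.23 in RUNX2/MYC and 10.51, 10.32 and 10.30 in WT. The groups overlapped through RUNX2/MYC replicate 2, and the log2 fold change was -0.11 (standard error 0.11, 95% interval -0.38 to 0.16, adjusted p = 0.562, limma). Without RUNX2/MYC replicate 2 it was -0.19, and it was -0.041 without RUNX2/MYC replicate 1 and -0.040 when WT replicate 1 was left out.

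Zap70, the kinase that docks on phosphorylated CD3 and zeta chains, lies on chromosome 1 (36761798 to 36782821). The RefSeq table holds windows before 3 of its starts, and 1 of these windows holds the RUNX motif, 75 bases before the start. The 60 bases around it are shown with the motif in capitals, because Zap70 was 1 of the 2 genes with the largest differences, beside the stretches of the other members that held a RUNX motif or a MYC E-box.
Zap70, chr1:36764413-36764472, plus strand: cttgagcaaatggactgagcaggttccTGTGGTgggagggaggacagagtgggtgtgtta
Ptpn22, chr3:103860085-103860144, plus strand: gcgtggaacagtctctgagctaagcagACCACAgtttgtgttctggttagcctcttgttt
Lat, chr7:126369702-126369761, minus strand: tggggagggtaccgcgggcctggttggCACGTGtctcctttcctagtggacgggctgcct
The 8 genes had 11 windows in all. The RUNX motif was in 2 of the 11, 1 of Zap70 and 1 of Ptpn22, beside 14.0% of all windows. The MYC E-box was in 1 of the 11, that of Lat, beside 6.02% of all windows, so these matches too are a description only. The other windows of Zap70 held CAGGTG, at 209 and 196 bases before 1 start and at 184 bases before another. Ptpn22 held the RUNX motif at 165 and 48 bases before 1 of its starts, and Lat the E-box at 166 bases. The starts of the 3 stretches shown are those of transcripts and lie inside the gene bounds given here.

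The log2 signals of Zap70 were 10.42, 10.52 and 10.45 in RUNX2/MYC and 10.02, 10.13 and 10.32 in WT. As for Cd3d, every RUNX2/MYC array was higher than every WT array and WT replicate 3 was the nearest of its group. The means were 10.46 ± 0.053 in RUNX2/MYC and 10.16 ± 0.15 in WT (SD, n = 3 each), a log2 fold change of 0.30 (standard error 0.10, 95% interval 0.060 to 0.55) that did not pass the adjusted test (limma, adjusted p = 0.178). The summed T-lineage markers, which did not separate the groups, are given above. So are the lower RUNX2/MYC sums of epithelial markers and of dendritic cell and macrophage markers, the latter weighted most by Cd74, H2-Aa and H2-Ab1. The part of these cell types in the values of Cd3d and Zap70 was not tested.

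Lat and Lcp2 encode the adaptors that ZAP-70 phosphorylates, LAT in the membrane and SLP-76 in the cytosol, on which phospholipase and exchange factors assemble. Lat (chromosome 7, 126363827 to 126369705) had log2 signals of 12.14, 12.23 and 12.17 in RUNX2/MYC and 12.17, 12.15 and 12.39 in WT. Only WT replicate 3 stood apart, and the log2 fold change was -0.052 (standard error 0.098, 95% interval -0.28 to 0.18, adjusted p = 0.748, limma). Lcp2 (chromosome 11, 34046928 to 34092281) had log2 signals of 11.79, 11.87 and 11.90 in RUNX2/MYC and 11.99, 11.91 and 12.05 in WT. The RUNX2/MYC arrays were all lower, but RUNX2/MYC replicate 3 and WT replicate 2 almost met. The log2 fold change of Lcp2 was -0.13 (standard error 0.085, 95% interval -0.33 to 0.076, adjusted p = 0.387, limma).

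Ptpn22 encodes a tyrosine phosphatase that, with the kinase CSK, damps TCR signals by acting on LCK and ZAP-70 (chromosome 3, 103856575 to 103912252). Its log2 signals were 9.40, 9.79 and 9.73 in RUNX2/MYC and 9.42, 9.53 and 9.79 in WT. The groups covered the same range, and of the 8 genes Ptpn22 had the widest error, its log2 fold change being 0.062 (standard error 0.15, 95% interval -0.28 to 0.41, adjusted p = 0.802, limma).

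Profiles of the 8 genes over the 6 arrays were compared by the root mean square difference of log2 signals centred per gene. No grouping of the genes was tested. The closest pairs were Cd3e and Cd3g (0.058), Lat and Lcp2 (0.067), and Cd3d and Zap70 (0.069), and the farthest was Cd247 and Zap70 (0.26). RUNX2/MYC replicate 1 was the lowest array for 5 of the 8 genes, WT replicates 1 and 3 were each the highest for 3, and RUNX2/MYC replicate 2 for 2. Among 19937 other genes the nearest profile was that of Efcab2 for Cd3d (0.013), Mir488 for Cd3e (0.014), Naif1 for Cd3g (0.038), Ralb for Cd247 (0.026), Gatad2a for Zap70 (0.023), Ap1ar for Lat (0.019), Mef2d for Lcp2 (0.022) and Gba2 for Ptpn22 (0.013). With 6 arrays and this many genes a near match is a description only.

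Other genes of the pathway were taken from 5 lists by role, 81 genes in all, of which 74 were measured. None passed an adjusted p under 0.05 in either direction (limma), 10 of 74 (13.5%) passed an unadjusted p under 0.05 where 21.3% of all probe sets did, and 18 (24.3%) had no overlap between the groups where 24.4% of all probe sets had none. The median log2 fold change of the 74 was 0.0086. With the test and q values of the methods 3 were higher, namely Ubash3a (log2 fold change 0.46), Map4k1 (0.19) and Ptpn6 (0.18), at a threshold that 4.11% of all probe sets passed. The last 2 were named after their values were seen.

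Among 8 measured receptor chains and coreceptors (of 12 listed; Trac, Trbc1, Trbc2 and Tarp were not analysed here) the median log2 fold change was -0.011. Cd4, the coreceptor that brings LCK to MHC class II ligands, had log2 signals of 10.80, 11.47 and 11.25 in RUNX2/MYC and 11.82, 11.87 and 12.07 in WT. All RUNX2/MYC arrays were lower, and the log2 fold change was -0.74 (standard error 0.18, 95% interval -1.16 to -0.33, adjusted p = 0.091, limma, 0.0151 to 0.298 over 17 alternatives). The call of Cd4 passed in 4 of these, the replicate block among them (adjusted p = 0.034, limma). All 4 called a larger share of the probe sets they tested than limma did on the deposited values. For Ptcra, the pre-TCR alpha chain gene, the log2 fold change was -0.19 (adjusted p = 0.305, limma), and -0.12 without RUNX2/MYC replicate 1.

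The 8 measured kinases had a median log2 fold change of 0.081. Csk, the inhibitory kinase of LCK and partner of PTPN22, had log2 signals of 11.10, 11.16 and 11.09 in RUNX2/MYC and 10.85, 10.95 and 10.94 in WT. Its groups did not overlap, and its log2 fold change was 0.20 (adjusted p = 0.223, limma), and 0.061 with cyclic loess. Syk, the relative of ZAP-70 that B cells and myeloid cells use, differed by -0.29 on the log2 scale (adjusted p = 0.228, limma) and by -0.19 without RUNX2/MYC replicate 1. The 5 measured B-cell markers summed to 1152 to 1359 in RUNX2/MYC and 1393 to 1479 in WT, a sum in which Cd79b weighs most. Cd79a, Cd79b, Ms4a1 and Blnk each overlapped between the groups, Pax5 did not, and none of the 5 passed the adjusted test (limma). The part of B and myeloid cells in the value of Syk was not tested.

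All 20 adaptors were measured, with a median log2 fold change of 0.016. Lime1, a membrane adaptor that LCK phosphorylates, had log2 signals of 8.90, 8.996 and 9.17 in RUNX2/MYC and 8.42, 8.21 and 8.70 in WT. Its groups did not overlap and the log2 fold change was 0.58 (standard error 0.14, 95% interval 0.24 to 0.92, adjusted p = 0.0992, limma, 0.00961 to 0.335 over 17 alternatives). It passed with the replicate block (adjusted p = 0.0322, limma), with probe sets of 1 symbol (0.035) and with array weights (0.00961), and in no other alternative. Each of these settings also called a larger share of its probe sets than limma did on the deposited values. Cd2bp2, whose protein binds the tail of CD2, differed by 0.31 on the log2 scale (adjusted p = 0.18, limma). Downstream of LAT 16 effectors were measured, with a median of -0.0034. The phosphoinositide 3-kinase genes Pik3r1 (regulatory subunit) and Pik3cd (catalytic subunit) had log2 fold changes of -0.28 and 0.27 (adjusted p = 0.242 and 0.264, limma), the first being -0.17 when RUNX2/MYC replicate 1 was left out and the second 0.15 when WT replicate 1 was.

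All 22 genes listed as inhibitors of the pathway were measured, with a median log2 fold change of 0.048, and 7 of the 22 had no overlap between the groups, where 24.4% of all probe sets had none. The list holds Ptprc and Ptpn11, whose roles are not only inhibitory, so its median describes the list alone. Ubash3a, which encodes the TCR-damping protein STS-2, had log2 signals of 10.16, 10.28 and 10.21 in RUNX2/MYC and 9.72, 9.72 and 9.82 in WT. The groups lay apart, with little spread in either, and the log2 fold change was 0.46 (standard error 0.085, 95% interval 0.26 to 0.66, adjusted p = 0.0505, limma, 0.00678 to 0.251 over 17 alternatives). Some alternatives called it, median centring and the replicate block among them, and others did not, quantile normalization and cyclic loess among them. Every alternative that called Ubash3a also called a larger share of its probe sets than limma did on the deposited values. The largest adjusted p came without WT replicate 2, where 3 of 35556 probe sets passed. Ptpn2, a tyrosine phosphatase of TCR and cytokine signaling, had log2 signals of 9.38, 9.60 and 9.37 in RUNX2/MYC and 8.91, 8.87 and 9.07 in WT. Its groups did not overlap either, and the log2 fold change was 0.50 (standard error 0.11, 95% interval 0.25 to 0.75, adjusted p = 0.0709, limma, 0.0107 to 0.300 over 17 alternatives). These values are those of its brightest probe set. Averaged over the probe sets of Ptpn2, the log2 fold change was 0.38 (adjusted p = 0.145, limma).

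**Figure D4:**
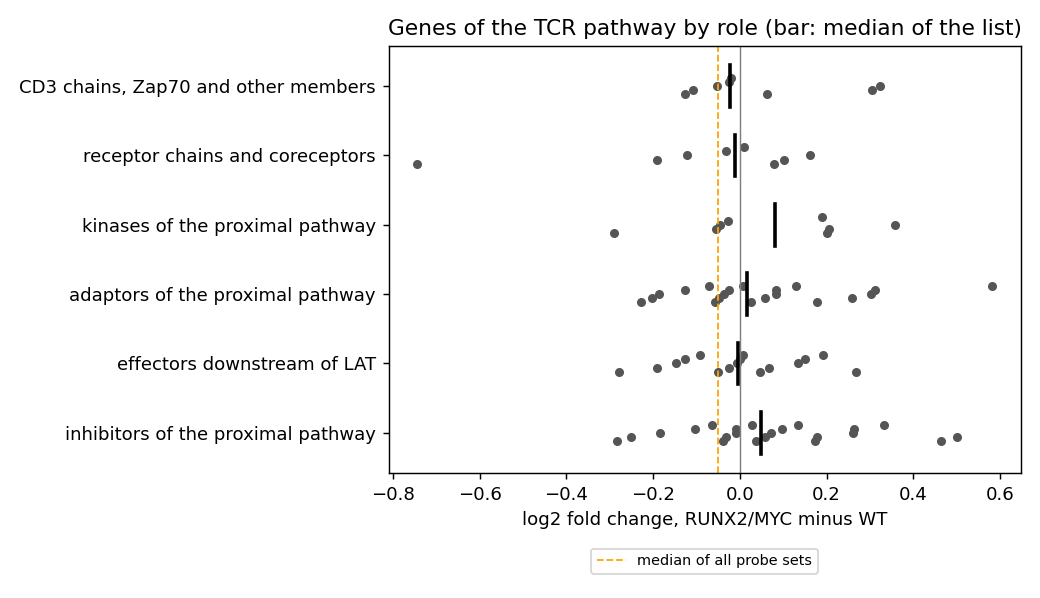
Log2 fold change, RUNX2/MYC minus WT, of the 8 measured TCR genes and of 74 further genes of the pathway in 5 lists by role; points are genes, black bars are list medians and the dashed line is the median of all probe sets. Every list median lay between -0.023 and 0.081, and the farthest points were Cd4 (-0.74) and Lime1 (0.58).

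The smallest values had no settled sign. Cd3d (0.18 to 0.41) and Zap70 (0.15 to 0.39) stayed positive, and Cd247 (-0.26 to -0.024) and Lcp2 (-0.24 to -0.042) stayed negative, under all 17 alternatives, whereas Cd3e, Cd3g, Lat and Ptpn22 changed sign in at least 1. Cd3d and Zap70 passed an adjusted p under 0.05 in 1 of the 17, limma with array weights (0.0254 and 0.0211), a setting that called 36.8% of all probe sets. No member passed without RUNX2/MYC replicate 1, where 4.47% of all probe sets did. None passed without WT replicate 3, where 540 probe sets were higher and 75 lower. Without RUNX2/MYC replicate 2 or 3, or WT replicate 1 or 2, only 3 to 4 of 35556 probe sets passed. The lack of calls in those runs, for members and pathway genes alike, therefore cannot show that a gene did not differ.

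**Figure D5:**
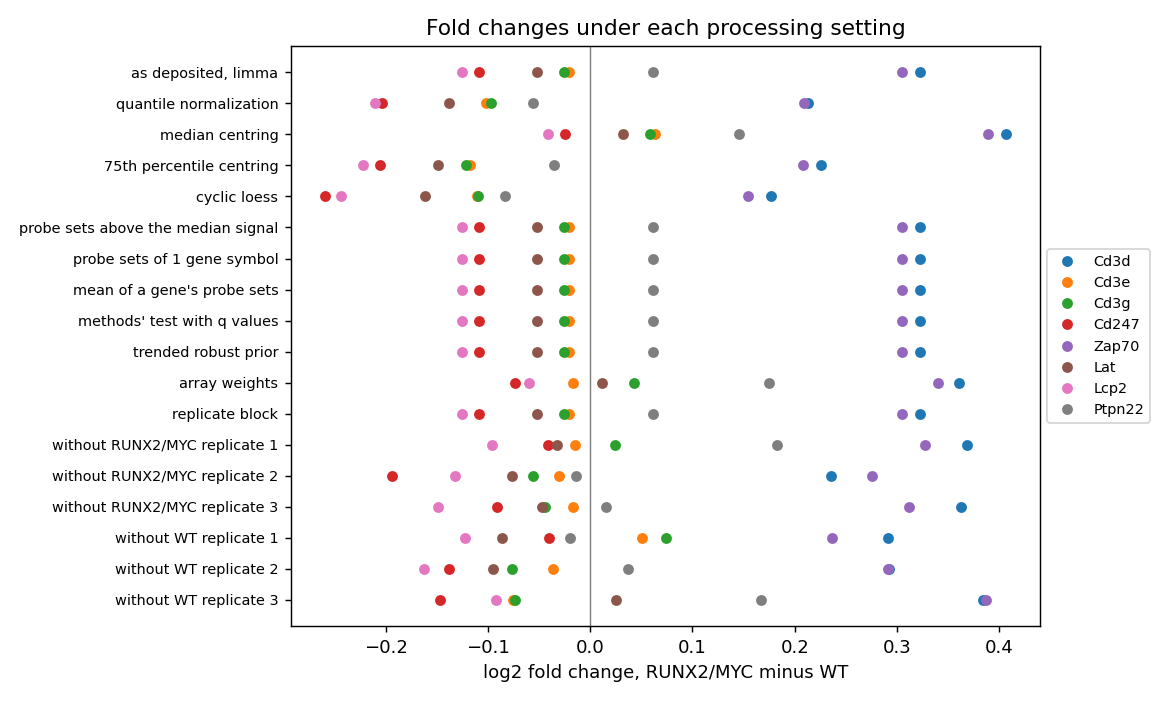
Log2 fold change, RUNX2/MYC minus WT, of the 8 measured genes (coloured points) with the deposited values and under each of 17 alternatives, including the removal of each array in turn. Cd3d and Zap70 stayed to the right of the other genes in every setting shown, Cd247 and Lcp2 stayed below 0, and the other 4 genes lay on both sides of 0.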

How the data were processed

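The authors hybridised thymus RNA to Affymetrix MoGene-1 arrays, 3 for RUNX2/MYC and 3 for WT, and deposited 1 table of log2 signals per probe set. The submitters' processing notes list Affymetrix Expression Console 1.4 and RMA, which corrects background, scales arrays alike and condenses probes into probe sets; the study's methods give Partek Genomics Suite and a correction for GC content. Array medians of the deposited values still ran from 7.31 to 7.49, so small fold changes depend on the scaling, and other scalings were tried. Of the probe sets the annotation pairs 21789 with 1 symbol, 1621 with several and 12146 with none. The deposited log2 values were fitted over all probe sets with limma 3.58.1 in R 4.3.3 (RUNX2/MYC minus WT, Benjamini-Hochberg adjustment, threshold 0.05), after a check on simulated arrays. The number of arrays limits the precision.

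The methods' test (a linear model per probe set with q values), other scalings, filters and weights, a replicate block and removal of single arrays were alternatives. Genes named were all members, the 2 genes of smallest unadjusted p in each pathway list, and the nearest profile per member. Members and lists were chosen with earlier results of these data known. Promoter windows came from RefSeq (GRCm38.p6), and gene coordinates from the same assembly.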

Additional observations from a re-analysis of the deposited data

How the results depend on the processing

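Of 306 refits of the named genes under 17 alternatives, 271 kept direction and side of the threshold, 21 passed where the deposited values did not, and 14 changed sign. All sign changes concerned members with values near 0, and the cause was not tested. With median centring Cd3e was 0.064, Cd3g 0.059 and Lat 0.032; with array weights Cd3g was 0.042 and Lat 0.011. Ptpn22 was -0.055 with quantile normalization, -0.035 with 75th percentile centring and -0.083 with cyclic loess. Leaving out single arrays gave -0.076 to 0.050 for Cd3e, -0.076 to 0.074 for Cd3g, -0.095 to 0.025 for Lat and -0.020 to 0.18 for Ptpn22, the sign turning without RUNX2/MYC replicate 1 (Cd3g 0.025), RUNX2/MYC replicate 2 (Ptpn22 -0.013), WT replicate 1 (Cd3e, Cd3g and Ptpn22) and WT replicate 3 (Lat). The difference of Cd3e minus Cd3g between groups ran from -0.040 to 0.040 without single arrays, that of Cd3d minus Cd3e from 0.24 to 0.46, of Cd3d minus Cd3g from 0.22 to 0.46 and of Lat minus Lcp2 from 0.036 to 0.12. The median of the 8 members was -0.12 with 75th percentile centring and -0.11 with cyclic loess, and -0.056 to 0.015 without single arrays. Among genes of constant sign, cyclic loess gave 0.18 for Cd3d, 0.15 for Zap70, -0.26 for Cd247, -0.24 for Lcp2, 0.061 for Csk, 0.16 for Pik3cd and -0.31 for Ptcra, and median centring gave -0.024 for Cd247, -0.042 for Lcp2 and -0.11 for Ptcra.

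The 8 members gave no call except with array weights (2 higher, Cd3d and Zap70). Of 74 pathway genes the deposited values called none. Array weights (fitted gene by gene, as limma's default did not converge) called 13 higher and 2 lower, and 36.8% of all probe sets. Quantile normalization and cyclic loess each called 1 lower (Ptpn7, named after its value was seen), median centring and a trended robust prior 1 higher (Ubash3a), the methods' test 3 higher, probe sets above the median signal 2 higher and 1 lower (Cd4), and probe sets of 1 symbol 3 higher and 1 lower (Cd4), the last 2 testing fewer probe sets. Without single arrays 0 to 1 were higher (Ubash3a without RUNX2/MYC replicate 1, 0.49, adjusted p = 0.0478 by limma). Most removals gave few calls anywhere (see above).

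Whether arrays that share a replicate number are paired cannot be told from 3 arrays a group. Deviations from the group means correlated at 0.501, -0.148 and 0.606 for replicate numbers 1 to 3. Arrays of unlike number correlated at -0.626 (RUNX2/MYC replicate 1 and WT replicate 3) to 0.372 (RUNX2/MYC replicate 1 and WT replicate 2). The study's methods name littermate-matched controls, but the array labels give only replicate numbers. With the replicate block no member passed, and 2 pathway genes were higher (Lime1, Ubash3a) and 1 lower (Cd4), while over all probe sets 1654 were higher and 763 lower, against 596 and 45 without it.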
